A study of Mus musculus with 3 samples.

Results

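The 8 immunoglobulin heavy chain constant genes Ighm, Ighd, Ighg3, Ighg1, Ighg2b, Ighg2c, Ighe and Igha, and Jchain, were followed through 3 single-cell RNA libraries of mouse mesenteric lymph node. They are the rows that carry these symbols in the deposited gene lists, 9 of 32285 genes, and all 9 were found in every library. Each library was made from the pooled nodes of 6 animals fed orally for 4 weeks, and 10000 cells were loaded per library after enzymatic digestion and removal of dead cells, per the labels' protocols. The LysoPS-OVA animals received 1 µg ovalbumin with lyso-phosphatidylserine nanoparticles, the free OVA animals 1 µg ovalbumin alone, and the citrate buffer animals 5 mM citrate buffer, titled as an untreated control. The labels name no strain, age, sex or genotype. The question put by the design is how oral feeding of the antigen, free or in particles, differs from buffer in the node that drains the gut. With 1 pooled library per group the spread between animals could not be estimated, so no test of a feeding difference was made and no p-value is given.

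A B cell assembles 1 variable region and attaches it to a constant region chosen from a row of genes on the chromosome. Naive B cells make IgM and IgD from a single primary transcript of Ighm and Ighd by alternative splicing. After stimulation, class switching can cut the DNA and join the variable region to a downstream constant gene, which deletes the genes in between and turns the cell to IgG, IgE or IgA. In gut-draining nodes IgA is the class best known for protecting the mucosa. The product of Jchain links IgA into dimers and IgM into pentamers, which lets the polymeric immunoglobulin receptor carry them across epithelium.

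All 8 heavy chain genes lie on the minus strand of chromosome 12 in GENCODE mouse release 21 (GRCm38/mm10), in the order Ighm, Ighd, Ighg3, Ighg1, Ighg2b, Ighg2c, Ighe, Igha, over 167901 bases from Ighm at chr12:113418558-113422730 to Igha at chr12:113254830-113260236. Jchain lies apart at chr5:88519809-88527891, also on the minus strand. All 9 identifiers in the deposited gene lists matched this annotation. The ends of the secreted coding sequences are shown because they set apart the classes that bind J chain. The last 63 coding bases of the secreted mu and alpha chains end in a tail whose next-to-last codon, in capitals, is the cysteine through which J chain is joined.
Ighm, chr12:113420867-113420929, minus strand: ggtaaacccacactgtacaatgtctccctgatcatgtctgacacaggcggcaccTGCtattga
Igha, chr12:113258768-113258830, minus strand: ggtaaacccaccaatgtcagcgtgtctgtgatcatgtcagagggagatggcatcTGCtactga
The same 63 bases of the 4 gamma genes lack that cysteine codon. Counting from the 3′ end of transcripts did not tell secreted from membrane forms apart here.

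Barcodes were sorted into gates by marker genes, with no immunoglobulin gene and no Jchain among the markers. The B gate held 3935, 5041 and 3739 barcodes in LysoPS-OVA, free OVA and citrate buffer. The germinal centre gate, for the sites where activated B cells mutate and switch, held 265, 403 and 337. The plasma gate, meant for antibody-secreting cells, held 54, 54 and 30. A non-B gate of T, NK, myeloid and stromal barcodes with 0 UMIs of B markers held 2851, 3021 and 3744 and served as the background. A UMI is a molecular tag that counts 1 captured transcript. Levels are UMIs summed over a gate per 1000000 UMIs of that gate (CPM), and the 95% intervals given with levels, shares and folds are exact and cover counting error only.

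The libraries differed in depth and in free RNA. They held 20873, 28660 and 28927 barcodes in LysoPS-OVA, free OVA and citrate buffer, each more than the cells loaded, with median UMIs of kept barcodes of 4126, 1823 and 2646. Between 98 and 119 kept barcodes were shared by each pair of libraries, and at most 8 of these lay in both B gates and 0 in both germinal centre or both plasma gates. The share of B gate barcodes with few ribosomal protein transcripts was 19.3% in LysoPS-OVA, 15.6% in free OVA and 31.4% in citrate buffer. The cell type field of the labels reads intestinal cells, whereas the tissue is the node.

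The gates were checked against markers that had not defined them. The summed level of 6 B cell markers was 9226, 8049 and 8144 CPM in the B gates, against 329, 426 and 510 CPM in the non-B gates, so the B gate carried the markers its name asks for. In the germinal centre gate the 6 germinal centre check markers summed to 911, 799 and 1043 CPM, against 81.1, 97.8 and 148 CPM in the B gate. These markers do not single out germinal centre cells, since they summed to 1074, 1030 and 1200 CPM in barcodes gated on myeloid markers. In the germinal centre gate the B cell check markers were at 6081, 5803 and 4290 CPM. The plasma gate held B cell check markers at 5914, 5443 and 6006 CPM, near the level of the germinal centre gate. Its 8 plasma check markers summed to 1136, 1581 and 1214 CPM, against 372, 300 and 340 CPM in the B gate. Its levels are therefore not those of antibody-secreting cells alone. A plasma core was defined after the data were seen. It took barcodes with at least 3 of 7 plasma markers and at least 3 plasma marker UMIs per 1000 UMIs outside immunoglobulin genes. The plasma gate's limit of 1 UMI of other lineages was not applied, so the core is not a subset of that gate. The core held 13, 32 and 20 barcodes in LysoPS-OVA, free OVA and citrate buffer, some of them in no gate. The core barcode with the most heavy chain UMIs lay in no gate in LysoPS-OVA and citrate buffer. In free OVA it lay in the plasma gate. B cell check markers were at 629, 434 and 1188 CPM in the core, and plasma check markers at 4474, 4776 and 3920 CPM. The germinal centre check markers, Mki67 among them, were at 2014, 1189 and 1220 CPM there.

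**Figure D1:**
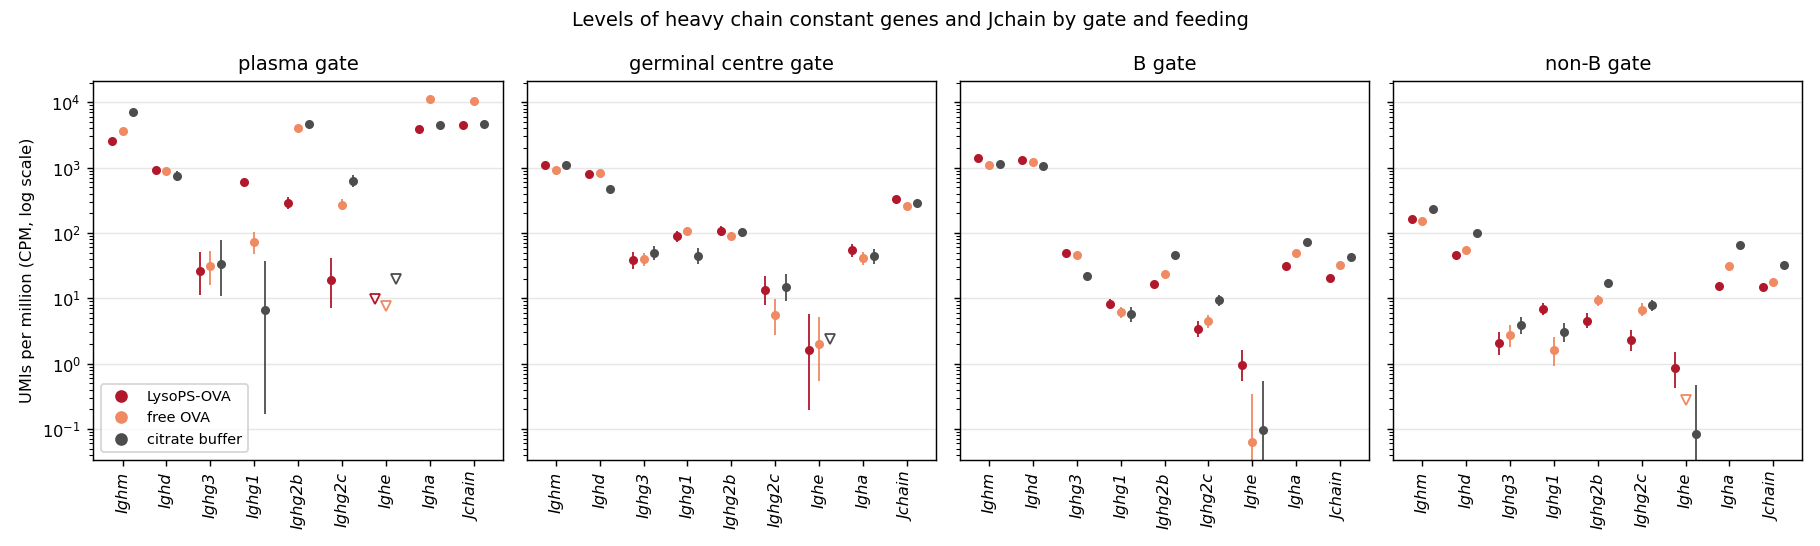
Level of each of the 9 genes (x axis) in CPM on a log scale (y axis) in the plasma, germinal centre, B and non-B gates, with 1 point per library (LysoPS-OVA, free OVA, citrate buffer) and bars for 95% exact Poisson intervals. Open triangles mark the level of 3 UMIs where none was counted; in the B gate Ighm and Ighd lie between 1076 and 1386 CPM in all 3 libraries, and every other gene is below 100 CPM.

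Most barcodes of the plasma core drew nearly all of their heavy chain UMIs from 1 class. In the plasma core immunoglobulin genes took 23.9% of all UMIs in LysoPS-OVA, 29.2% in free OVA and 17.5% in citrate buffer. Igha, the constant region of IgA, stood at 9459 CPM in LysoPS-OVA, 31305 CPM in free OVA and 15660 CPM in citrate buffer. Jchain stood at 24896, 31359 and 15958 CPM in the same order. Both were highest in free OVA, and Igha was lowest in LysoPS-OVA while Jchain was lowest in citrate buffer. Ighd, which secreting cells shut off, was at 18.2, 72.4 and 178 CPM, and its ratio to Ighm was 0.00387 in LysoPS-OVA, 0.0112 in free OVA and 0.0125 in citrate buffer, against 0.950, 1.09 and 0.949 in the B gate.

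Each core barcode with at least 10 heavy chain UMIs was given the gene that held at least 80% of them, with Ighm and Ighd counted together. Igha was the most frequent of these calls in each library. In LysoPS-OVA it was called in 5 of 13 barcodes (38.5%, 13.9 to 68.4%). It was called in 13 of 31 in free OVA (41.9%, 24.5 to 60.9%) and 7 of 19 in citrate buffer (36.8%, 16.3 to 61.6%). The 3 intervals overlap almost wholly. IgM followed with 3, 10 and 4 barcodes called Ighm or Ighd. Ighg2b was called in 2, 3 and 2 barcodes, Ighg1 in 2, 0 and 0 and Ighg2c in 0, 0 and 2. The other 1, 5 and 4 were mixed. Some mixed barcodes of each library held mainly Ighg2b and Ighg2c, so calls by gene undercount IgG as a class and do not rank it against IgA or IgM. No core barcode was called Ighg3 or Ighe, which allows shares of up to 23.1%, 9.68% and 15.8% for each gene.

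**Figure D2:**
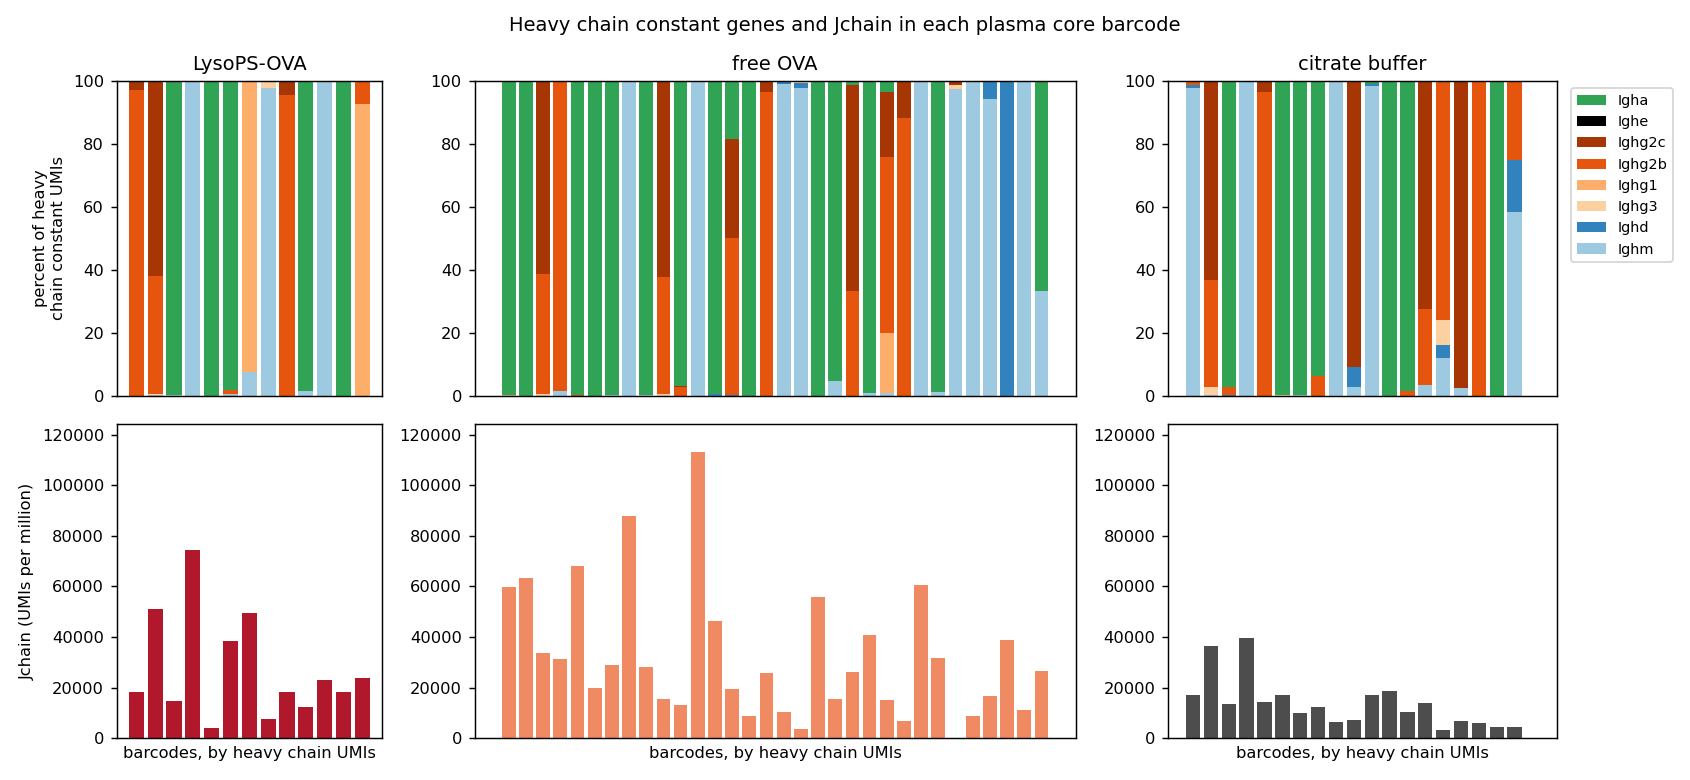
Each column is 1 barcode of the plasma core, ordered by its heavy chain UMIs, in LysoPS-OVA, free OVA and citrate buffer. The upper row gives the percent of its heavy chain UMIs from each gene and the lower row its Jchain level in CPM; most columns are of 1 colour, Igha fills 5, 13 and 7 of them, and Ighg2b and Ighg2c share several columns.

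The plasma gate, which held more barcodes than the core, had mostly Ighm or Ighd calls. Of its barcodes with at least 10 heavy chain UMIs, 36 of 49 in LysoPS-OVA, 32 of 43 in free OVA and 13 of 23 in citrate buffer were called Ighm or Ighd. Igha was called in 8 (16.3%, 7.32 to 29.7%), 6 (13.95%, 5.30 to 27.9%) and 5 (21.7%, 7.46 to 43.7%), again with overlapping intervals. Few of the Ighm or Ighd barcodes had a Jchain UMI, 4 of 36, 9 of 32 and 3 of 13.

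Summed levels in the plasma gate differed between feedings by several-fold, and single barcodes carried much of them. Igha stood at 3947 CPM in LysoPS-OVA, 11184 CPM in free OVA and 4511 CPM in citrate buffer, and without the highest barcode of each library at 2621, 6106 and 1876 CPM. It was highest in free OVA both ways. The free OVA over citrate buffer fold of Igha was 2.48 (2.29 to 2.69) and that of LysoPS-OVA over free OVA 0.353 (0.331 to 0.376). Jchain ran beside it at 4557, 10328 and 4678 CPM, a fold of 2.21 (2.04 to 2.40) for free OVA over citrate buffer. These intervals leave out the spread between cells, which the leading barcodes show to be wide. In the plasma core the same Igha fold of free OVA over citrate buffer was 1.999 (1.91 to 2.09).

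In the plasma gate most Ighg1 and Ighg2b UMIs of each library lay in 1 barcode. Ighg1, the most common IgG class of responses to protein antigens, was at 597 CPM in LysoPS-OVA, 71.5 CPM in free OVA and 6.67 CPM in citrate buffer. The leading barcode held 86.6%, 75% and 100% of those UMIs, and without it the levels were 81.1, 19.2 and 0 CPM. Ighg2b, a complement-fixing IgG class, was at 289, 4010 and 4704 CPM, of which 71.1%, 88.2% and 93.9% came from 1 barcode, leaving 84.4, 507 and 291 CPM. Ighm was at 2554, 3678 and 7200 CPM with the leading barcode, which held 77.6% of the citrate buffer UMIs, and at 1425, 2402 and 1748 CPM without it. The order of the feedings for Ighm and Ighg2b therefore turned on single barcodes. Ighg2c was at 19.3, 271 and 627 CPM, with 50%, 86.8% and 43.6% of its UMIs in the leading barcode, and at 9.74, 36.2 and 358 CPM without it. Ighg3 was at 25.7, 30.6 and 33.4 CPM on 8, 12 and 5 UMIs, of which the leading barcode held 2, 3 and 3. Ighd was at 918, 879 and 747 CPM, and Ighe had 0 UMIs in all 3.

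A member was counted as past 2-fold when its log2 ratio, with 10 CPM added to both levels, was at least 1 in size and the higher library had at least 50 CPM and 30 UMIs. In the plasma gate 1 member was higher and 3 were lower of 7 measured in LysoPS-OVA over citrate buffer, where 3.19% of all genes were higher and 1.38% lower by this rule. In free OVA over citrate buffer 2 were higher and 1 was lower of 6 measured, against 4.44% and 1.37% of all genes. In LysoPS-OVA over free OVA 1 was higher and 4 were lower of 7 measured, against 1.95% and 2.86%. These shares are larger among the members, and 1 barcode holds most of the UMIs of several of them. In the plasma core 2 were higher and 1 was lower of 6 in LysoPS-OVA over citrate buffer, against 5.29% and 12.2% of all genes. In free OVA over citrate buffer 0 were higher and 1 was lower of 5, against 2.78% and 9.27%. In LysoPS-OVA over free OVA 2 were higher and 1 was lower of 6, against 6.44% and 6.21%. Ighg2b and Ighg2c were lower in LysoPS-OVA than in either other library in the plasma gate but were higher in it than in citrate buffer and free OVA in the core, with log2 ratios of 1.47 and 1.15 for Ighg2b and 0.45 and 0.54 for Ighg2c. A single core barcode held 93.9% of the LysoPS-OVA UMIs of Ighg2c. Without the leading barcode of each library Ighg2c in the core was at 529 CPM in LysoPS-OVA, 2254 CPM in free OVA and 1920 CPM in citrate buffer, so LysoPS-OVA was then the lowest. Ighg2b was at 5960, 4922 and 2821 CPM, still highest in LysoPS-OVA. Of the 2122 LysoPS-OVA core UMIs of Ighg2b, the leading barcode held 1604 and the next one 451. That order therefore still rests on single barcodes.

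J chain transcripts accompanied every class in secreting barcodes, the IgG ones included. A Jchain UMI was found in 25 of 25 core barcodes called Igha, 16 of 17 called Ighm or Ighd and 11 of 11 called an Ighg gene, over the 3 libraries. The IgG barcodes carried it although their secreted tails lack the cysteine codon shown above for Ighm and Igha. Per heavy chain UMI, Igha barcodes held 0.566 Jchain UMIs in LysoPS-OVA (0.511 to 0.627), 0.656 in free OVA (0.636 to 0.677) and 0.352 in citrate buffer (0.325 to 0.380). Ighm or Ighd barcodes held 0.910, 0.653 and 0.433. Ighg barcodes held 0.375, 0.497 and 0.130, below both other classes in each library as sums. The median barcode gave another order in LysoPS-OVA, at 1.01 for Ighg, 0.421 for Igha and 0.925 for Ighm or Ighd; 1 Ighg barcode there held 1651 of the 1906 heavy chain UMIs of its class. In free OVA the medians were 0.301, 0.789 and 0.789, and in citrate buffer 0.243, 0.321 and 0.471. Single barcodes spread far more widely than these sums, over 0.0927 to 1.15 among the Igha barcodes and 0.0451 to 3.57 among the Ighg barcodes, so the classes overlapped barcode by barcode. The ratio compares genes of different transcript length from 3′ counts and is no measure of protein.

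The plasma core, a small number of barcodes, held a large share of the Jchain and Igha transcripts, and most of them in free OVA. The 13, 32 and 20 core barcodes held 49.1% of all Jchain UMIs in the kept barcodes of LysoPS-OVA, 72.1% in free OVA and 37.3% in citrate buffer. For Igha the shares were 34.8%, 72.8% and 28.3%. For Ighg2c they were 74.8%, 80.9% and 53.8%, and for Ighg2b 59.2%, 51.1% and 27.2%. Ighd was the opposite, with 0.00476%, 0.0559% and 0.0808% of its UMIs in the core.

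**Figure D3:**
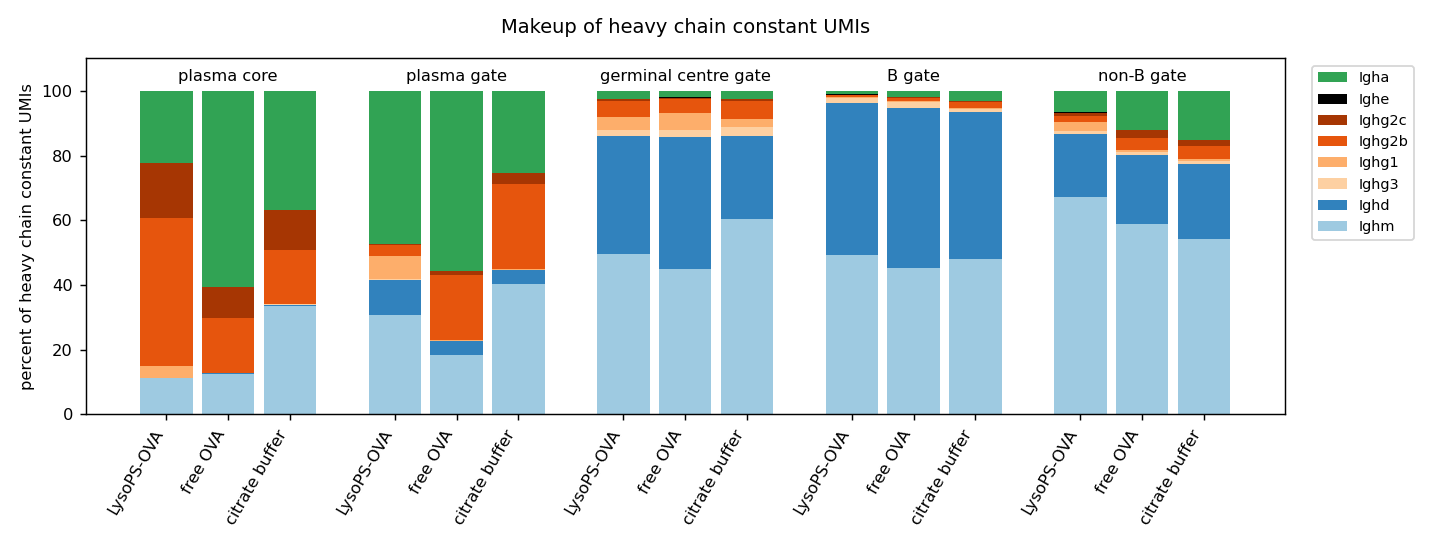
Percent of heavy chain UMIs from each gene (y axis) in the plasma core, plasma gate, germinal centre gate, B gate and non-B gate of each library. The 6 switched genes take 88.8%, 87.3% and 66.2% in the core of LysoPS-OVA, free OVA and citrate buffer and 3.89%, 5.29% and 6.62% in the B gate, while the non-B gate, which should make none, shows 13.4%, 19.99% and 22.7%.

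Ighg2b and Ighg2c, neighbouring genes for related IgG classes, were found together in part of the barcodes. Of 62 kept barcodes with at least 20 UMIs of both genes together, Ighg2c took under 10% in 44, 10 to 50% in 3, 50 to 90% in 12 and at least 90% in 3. The 12 lay at 51.5 to 75.0% and came from all 3 libraries (1, 6 and 5 in LysoPS-OVA, free OVA and citrate buffer). In the core, 1 LysoPS-OVA barcode held 451 Ighg2b and 743 Ighg2c UMIs, and a free OVA barcode held 592 and 947. A citrate buffer barcode held 299 and 551. Others were almost pure, with 1604 Ighg2b and 45 Ighg2c UMIs in LysoPS-OVA, 1384 and 0 in free OVA, and 0 and 171 in citrate buffer. Shown with the 14 differing bases of the last 63 coding bases in capitals, the reference copies read as follows.
Ighg2b, chr12:113306389-113306451, minus strand: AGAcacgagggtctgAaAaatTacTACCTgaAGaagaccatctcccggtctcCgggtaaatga
Ighg2c, chr12:113287389-113287451, minus strand: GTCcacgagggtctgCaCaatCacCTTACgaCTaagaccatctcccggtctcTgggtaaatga
Over the aligned coding sequence these genes were 85.9% identical, against 75.4 to 77.5% for the other pairs of gamma genes, yet none of the 90-base windows of the reference transcripts, the length of the sequenced read, was shared exactly between any of the 9 genes. Mouse strains differ in whether they carry the c or the a form of this gene, and the strain was not given, so the split between Ighg2b and Ighg2c is uncertain and its cause was not tested.

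Ighg1 was higher in the germinal centre gate than in the B and non-B gates of every library, and both OVA libraries had more of it there than citrate buffer. Ighg1 was at 89.4 CPM in LysoPS-OVA (73.6 to 108), 108 CPM in free OVA (93.7 to 123) and 44.6 CPM in citrate buffer (33.8 to 57.8). The intervals of both OVA libraries lay above that of citrate buffer and overlapped each other. The fold over citrate buffer was 2.003 (1.44 to 2.81) for LysoPS-OVA and 2.41 (1.79 to 3.29) for free OVA, and LysoPS-OVA over free OVA was 0.831 (0.655 to 1.049). Without the leading barcode of each library the levels were 78.2, 94.6 and 33.9 CPM, in the same order. Ighg1 was 13.1, 67.9 and 14.5 times as high as in the non-B gate of its own library.

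Switched barcodes in this gate followed the same order. Among barcodes with at least 3 heavy chain UMIs, those with at least 80% from switched genes were 18 of 172 in LysoPS-OVA (10.5%, 6.32 to 16.0%), 45 of 245 in free OVA (18.4%, 13.7 to 23.8%) and 13 of 204 in citrate buffer (6.37%, 3.44 to 10.7%). The free OVA interval lay above that of citrate buffer, and the LysoPS-OVA interval overlapped both. The non-B gate gave 1.04%, 6.15% and 2.54%, and the B gate 0.639%, 1.41% and 0.528%. The germinal centre intervals lay above the non-B intervals in LysoPS-OVA and free OVA and overlapped in citrate buffer. Median UMIs were 3995, 4234 and 3064 in the germinal centre gate and 4561, 2554 and 2809 in the non-B gate. By single gene, Ighg1 was called in 6, 18 and 3 germinal centre barcodes, Ighg2b in 2, 15 and 4, Igha in 1, 1 and 1 and Ighg3 in none. The share of switched UMIs did not follow the barcodes, at 13.9%, 14.2% and 13.9%.

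A stricter gate raised the switched share and kept the order, while a looser call did not keep it. With at least 50% of heavy chain UMIs from switched genes in place of 80%, the shares of the 2-marker gate were 16.3% in LysoPS-OVA (11.1 to 22.7%), 26.1% in free OVA (20.7 to 32.1%) and 17.2% in citrate buffer (12.3 to 23.0%), with LysoPS-OVA below citrate buffer and all 3 intervals overlapping. With 3 distinct germinal centre markers in place of 2, 101, 154 and 150 barcodes were left, and the switched share was 15 of 47 in LysoPS-OVA (31.9%, 19.1 to 47.1%), 36 of 83 in free OVA (43.4%, 32.5 to 54.7%) and 11 of 91 in citrate buffer (12.1%, 6.19 to 20.6%). Here too the free OVA interval lay above that of citrate buffer and the LysoPS-OVA interval touched both. Ighg1 was at 178, 218 and 72.5 CPM, Ighg2b at 237, 180 and 114 CPM, and Ighm at 702, 637 and 1149 CPM. B cell check markers were more alike between the libraries in this gate, at 2920, 2923 and 3315 CPM.

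**Figure D4:**
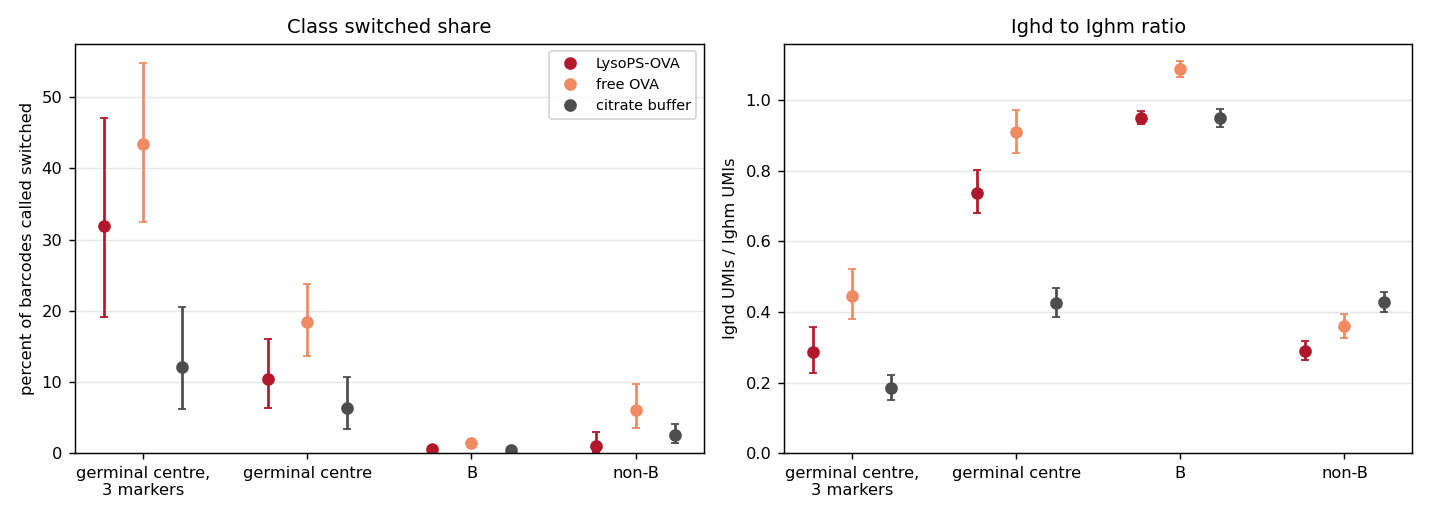
Left, percent of barcodes with at least 3 heavy chain UMIs called class switched (y axis) in the germinal centre gate at 3 and at 2 distinct markers, the B gate and the non-B gate. Right, Ighd UMIs over Ighm UMIs in the same gates; points are LysoPS-OVA, free OVA and citrate buffer and bars 95% exact intervals. At 3 markers the switched shares are 31.9%, 43.4% and 12.1%, and the Ighd to Ighm ratios 0.287, 0.445 and 0.184.

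Ighd, highest in naive B cells, was higher in the germinal centre gate of both OVA libraries than in that of citrate buffer. Its level was 795, 820 and 471 CPM in LysoPS-OVA, free OVA and citrate buffer, a fold over citrate buffer of 1.69 (1.52 to 1.87) and 1.74 (1.58 to 1.91). Ighd over Ighm was 0.738 in LysoPS-OVA (0.680 to 0.802), 0.909 in free OVA (0.850 to 0.972) and 0.426 in citrate buffer (0.387 to 0.469), 3 intervals that do not overlap. B cell check markers were higher in the same libraries, at 6081, 5803 and 4290 CPM, and their part in the result was not tested. In the stricter gate the Ighd levels came to 202, 283 and 211 CPM, and the LysoPS-OVA over citrate buffer log2 ratio to -0.064. The ratio to Ighm was still lowest in citrate buffer, at 0.287, 0.445 and 0.184.

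The germinal centre gate was split by an Ighd UMI, a split added after the data were seen. Jchain and Ighg2b were higher without Ighd in all 3 libraries. Class switching deletes Ighd, so the split itself sorts switched barcodes into the group without it. Higher levels of switched genes there are therefore no separate result. Barcodes without an Ighd UMI numbered 119, 209 and 186, with median UMIs of 2705, 2721 and 2510. Those with one numbered 146, 194 and 151, with medians of 4972, 5954 and 3778, so the split also followed depth. Ighm was 0.408, 0.217 and 0.490 times as high without Ighd in LysoPS-OVA, free OVA and citrate buffer. Jchain was at 777, 467 and 430 CPM without Ighd, against 115, 136 and 167 CPM with it, a ratio of 6.77, 3.44 and 2.58. Ighg2b was 5.21, 12.6 and 2.79 times as high without Ighd. Ighg1 was 2.58 and 4.92 times as high in LysoPS-OVA and free OVA, and 1.42 times (0.816 to 2.50) in citrate buffer, where the interval spans 1. Igha was 5.57 and 3.83 times as high in LysoPS-OVA and free OVA, and 1.03 times (0.589 to 1.81) in citrate buffer. Ighg3 ran the other way in LysoPS-OVA, at 0.134 times (0.0266 to 0.417), and its ratios of 0.609 (0.351 to 1.02) in free OVA and 1.30 (0.770 to 2.22) in citrate buffer have intervals that span 1. Ighg2c, on few UMIs, was at 15.0 (3.50 to 135.6), 0.630 (0.108 to 2.63) and 3.11 (1.06 to 11.03) times. The germinal centre check markers were at 1802, 1614 and 1340 CPM without Ighd, against 466, 315 and 777 CPM with it, and the B cell check markers at 1759, 1630 and 1715 CPM without Ighd, against 8235, 8286 and 6608 CPM with it.

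The remaining genes of the germinal centre gate lay closer together between feedings, save Ighg2c on 17, 11 and 19 UMIs. Jchain, which germinal centre B cells are known to transcribe before they secrete, was at 335 CPM in LysoPS-OVA, 260 CPM in free OVA and 291 CPM in citrate buffer, and 22.7, 14.6 and 8.98 times the non-B level. In barcodes called an Ighg gene it reached 872, 653 and 690 CPM (8, 33 and 7 barcodes), against 154, 116 and 243 CPM in those called Ighm or Ighd. Ighg2b was at 106, 89.2 and 102 CPM, with 35.3% of the LysoPS-OVA UMIs in 1 barcode. Ighm was at 1077, 902 and 1105 CPM, Ighg3 at 38.3, 39.3 and 49.3 CPM and Ighg2c at 13.6, 5.48 and 14.9 CPM. Igha, at 54.3, 40.8 and 43.8 CPM, was 3.52 (2.63 to 4.66), 1.30 (1.006 to 1.65) and 0.665 (0.497 to 0.872) times the non-B level, so it was above the background in LysoPS-OVA, where 1 barcode held 17 of its 68 UMIs, and below it in citrate buffer. Ighe had 2, 4 and 0 UMIs.

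Of the members measured in the germinal centre gate, 0 of 6 were past 2-fold in LysoPS-OVA over citrate buffer, where 0.979% of all genes were. In free OVA over citrate buffer 1 of 5, Ighg1, was higher with a log2 ratio of 1.11, against 0.737% of all genes, and in LysoPS-OVA over free OVA 0 of 6 were, against 0.177%. The same 2-fold rule applied to all genes.

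In the B gate the naive pair stood out and was nearly level between feedings. Ighm, the constant region of IgM, was at 1386 CPM in LysoPS-OVA, 1112 CPM in free OVA and 1133 CPM in citrate buffer. Ighd, the constant region of IgD, was at 1318, 1211 and 1076 CPM. The largest fold of either gene was 1.25 (1.22 to 1.27), for Ighm in LysoPS-OVA over free OVA. Both were far above the non-B gate, Ighd by 28.4, 22.0 and 10.8 times and Ighm by 8.64, 7.29 and 4.85 times.

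Among the switched genes of the B gate, Ighg3 stood furthest above the non-B gate in all 3 libraries, and both OVA libraries had more of it than citrate buffer. It encodes the IgG class known for responses to polysaccharides that need little T cell help. Its level was 49.1 CPM in LysoPS-OVA (45.6 to 52.7), 45.9 CPM in free OVA (42.7 to 49.4) and 22.2 CPM in citrate buffer (19.4 to 25.2). That was 23.7, 17.0 and 5.69 times the non-B level of 2.07, 2.70 and 3.90 CPM. The fold over citrate buffer was 2.21 (1.91 to 2.57) in LysoPS-OVA and 2.07 (1.78 to 2.41) in free OVA, while LysoPS-OVA over free OVA was 1.07 (0.964 to 1.18). All 3 levels were under the 50 CPM that the 2-fold rule asks for. Barcodes thinned to 1000 UMIs had an Ighg3 UMI in 4.26%, 4.26% and 2.09% of the B gate and in 0.333%, 0.347% and 0.392% of the non-B gate, with 130, 959 and 152 B gate and 149, 429 and 174 non-B barcodes too shallow to use. Unthinned, the B gate shares were 14.9%, 11.05% and 5.64%, and the non-B shares 0.877%, 0.828% and 1.20%.

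The Ighg3 UMIs of the B gate were spread thinly, beside Ighm and Ighd. They lay in 585, 557 and 211 barcodes, of which 78.3%, 76.7% and 91.5% had a single Ighg3 UMI, and no barcode had more than 6, 5 and 3. Of these barcodes 98.5%, 92.8% and 95.7% also held an Ighm or Ighd UMI, against 94.6%, 79.3% and 90.6% of the whole gate. They were also deeper, with median UMIs of 4465, 5063 and 3204, against 3901, 2224 and 2399 in the gate. No B gate barcode was called Ighg3, of 3443, 2914 and 2654 with at least 3 heavy chain UMIs, which allows shares of up to 0.0871%, 0.103% and 0.113%. Ighg3 is the first constant gene downstream of Ighd.

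Igha, Ighg2b and Jchain were lower in both OVA libraries than in citrate buffer in the B gate, and lower in the non-B gate as well. Igha was at 31.4 CPM in LysoPS-OVA, 49.5 CPM in free OVA and 73.6 CPM in citrate buffer in the B gate. In the non-B gate, which should not make it, it was at 15.4, 31.5 and 66.0 CPM. The B over non-B ratio was 2.04 (1.73 to 2.41), 1.57 (1.38 to 1.79) and 1.12 (1.009 to 1.23), so the citrate buffer level was close to background. The uncorrected fold over citrate buffer was 0.427 (0.380 to 0.479) for LysoPS-OVA and 0.673 (0.609 to 0.744) for free OVA. With the non-B level subtracted, 16.0, 18.0 and 7.60 CPM were left, and the log2 ratio of LysoPS-OVA over citrate buffer changed sign, to 0.56. Thinned shares gave the same order, at 2.44%, 4.46% and 7.58% in the B gate and 1.30%, 3.78% and 7.39% in the non-B gate.

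**Figure D5:**
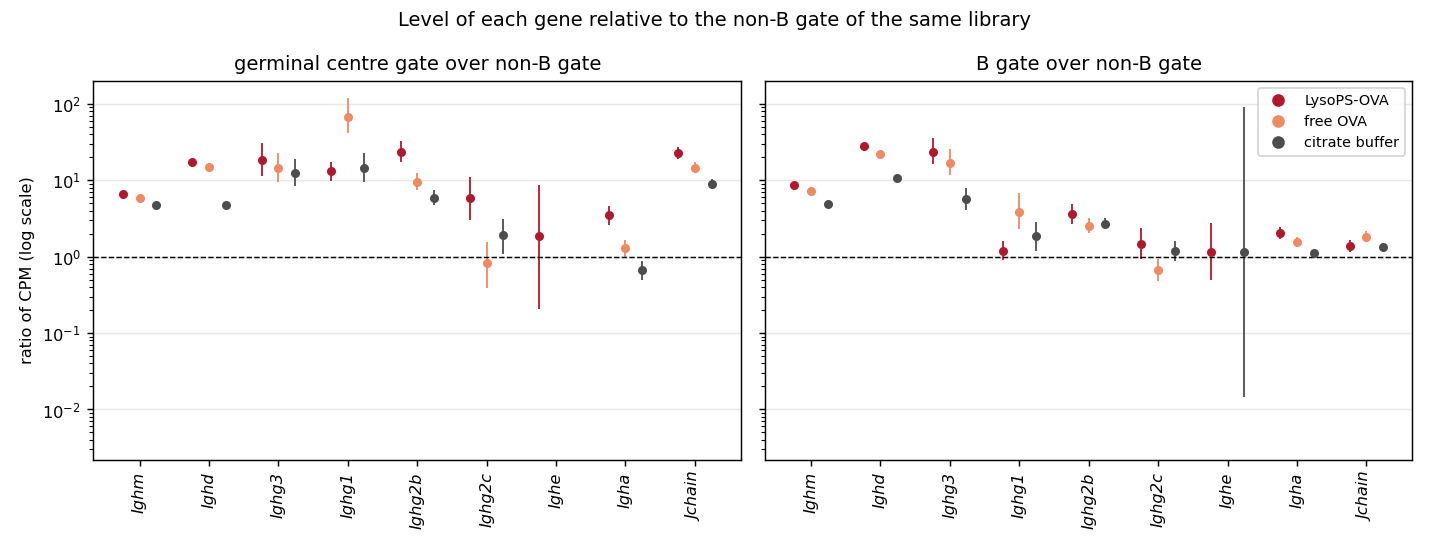
Ratio of each gene's level in the germinal centre gate (left) and B gate (right) to its level in the non-B gate of the same library, on a log scale, with 95% exact intervals; the dashed line marks equal levels. In the B gate Ighm, Ighd and Ighg3 lie far above the line, Ighg3 at 23.7, 17.0 and 5.69 in LysoPS-OVA, free OVA and citrate buffer, while Igha, Jchain and Ighg2c lie near it.

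The other switched genes of the B gate and Jchain were at low levels, from below the non-B level to 3.84 times it where that level was above 0. Ighg2b was at 16.2, 23.6 and 45.8 CPM in LysoPS-OVA, free OVA and citrate buffer, 3.59, 2.54 and 2.68 times the non-B level. Jchain was at 20.4, 32.7 and 43.1 CPM, 1.38, 1.83 and 1.33 times that level. Ighg1 was at 8.22, 6.08 and 5.64 CPM, 1.20 (0.912 to 1.60), 3.84 (2.28 to 6.85) and 1.84 (1.20 to 2.85) times that level. Ighg2c was at 3.40, 4.47 and 9.28 CPM, 1.48 (0.928 to 2.40), 0.666 (0.474 to 0.936) and 1.19 (0.886 to 1.60) times that level. In free OVA 1 barcode gated on myeloid markers held 47 of the 72 non-B UMIs of Ighg2c. The free OVA ratio below 1 rests on that barcode, as barcodes gated on T markers there had Ighg2c at 2.16 CPM. Ighe, the constant region of IgE and the class of allergic responses, had 15, 1 and 1 UMIs in the B gate and 11, 0 and 1 in the non-B gate. Ighe in LysoPS-OVA was at 1.14 times the non-B level (0.490 to 2.75).

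Few members passed the 2-fold rule in the B gate. In LysoPS-OVA over citrate buffer 1 of 3 measured was lower, Igha, against 0.805% of all genes past 2-fold in either direction. In free OVA over citrate buffer 0 of 3 were (0.531% of all genes), and in LysoPS-OVA over free OVA 0 of 2 (0.211%). In the non-B gate 1 of 3 was lower in LysoPS-OVA over citrate buffer (0.759%), 0 of 3 in free OVA over citrate buffer (0.528%) and 0 of 2 in LysoPS-OVA over free OVA (1.52%).

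Lists of 6 pathways around antibody production were read in the same comparisons. In the B and germinal centre gates none of their measured genes was past 2-fold in any of the 3 comparisons. Of 24 class switching genes, 10 were measured in the germinal centre gate in LysoPS-OVA over citrate buffer, with a median log2 ratio of -0.24 against -0.01 over all genes. Of 18 genes for switch cytokines and their receptors, 10 were measured, with a median of 0.39. Tgfbr1, a receptor for the cytokine that directs switching to IgA, was at 70.2 CPM in LysoPS-OVA, 45.8 CPM in free OVA and 35.2 CPM in citrate buffer. Its fold of LysoPS-OVA over citrate buffer was 1.99 (1.38 to 2.92).

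The plasma gate, which also carried B cell check markers, held 311629, 391541 and 149857 UMIs in LysoPS-OVA, free OVA and citrate buffer. A gene thus reached 30 UMIs at a lower level in the OVA libraries, so weak genes were measured mainly when high there. Some pathway genes passed the rule in this gate, on counts to be read with that limit and against the shares of all genes. In LysoPS-OVA over citrate buffer these were Irf4, a factor needed for plasma cell formation (1 of 12 measured in the secretory programme, fold 2.66, 1.46 to 5.24), and Tgfbr1 (1 of 5, fold 4.57, 1.97 to 12.97), with 3.19% of all genes higher and 1.38% lower. In free OVA over citrate buffer 4.44% of all genes were higher and 1.37% lower. Of 24 class switching genes 4 were measured, and 3 of these were higher (Hmces, Atm and Rif1). Of the 3, the interval of Hmces alone lay above 1, with a fold of 3.29 (1.31 to 10.6). So few measured genes, let in mainly by the deeper library, do not give the direction of the list. Of 18 folding and assembly genes 2 were higher, Dnajb9 and Sec11c. Sec11c, part of the signal peptidase, had a fold of 2.20 (1.59 to 3.10). Of 6 cytokine and receptor genes Tgfbr1 was higher and Itga4 lower. In LysoPS-OVA over free OVA 5 listed genes were lower (2 of 5 for switching, and 1 each of 12, 21 and 9 in the secretory, folding and receptor partner lists) and Itga4, 1 of 8, was higher, against 2.86% of all genes lower and 1.95% higher. Xbp1, which expands the secretory apparatus, had a fold of 0.454 (0.298 to 0.679), and Sec11c one of 0.462 (0.360 to 0.588). Igkc, the kappa light chain, had a fold of 0.448 in that comparison, beside the 0.353 of Igha and the 0.441 of Jchain.

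The genes most like each member were ranked by Pearson's r of log2(CPM + 10) over 15 points, 5 gates in 3 libraries that share library and depth, among 5090 genes with no gate marker. Jchain ran closest to Fkbp2 (0.96), Xbp1 (0.96), Manf (0.95) and Rpn1 (0.95). Igha ran closest to the chaperone Hsp90b1 (0.98), Dnajb11 (0.97), Ccr10 (0.97) and Pdia4 (0.96). Ccr10, a homing receptor of IgA plasma cells, was at 25.7, 43.4 and 60.1 CPM in the plasma gates of LysoPS-OVA, free OVA and citrate buffer and at 0.128, 0.186 and 0.287 CPM in the B gates. Ighd ran closest to Fcmr (0.99), the receptor for IgM, and to Cd22 (0.99), an inhibitory receptor of B cells. For Ighm the closest was Txndc11 (0.95). For Ighg1 the closest was Cops4, at 0.88, with plasma gate levels of Ighg1 that rested mostly on 1 barcode in each library.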

How the data were processed

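The deposited matrices are counts of UMIs, not normalized, for every gene in every barcode. The submitters' processing notes name Cell Ranger 7.2.0 and the build mm10, and the annotation release and the intron setting were not stated. Kept barcodes had 300 or more genes and no more than 10% of mitochondrial UMIs, and doublets called by Scrublet (scanpy 1.11.5, expected rate 0.8% per 1000 barcodes) were removed: 8.05%, 7.41% and 16.5% in LysoPS-OVA, free OVA and citrate buffer. That left 15929, 21603 and 21993 barcodes, from deposited totals of 84089686, 81559237 and 96616683 UMIs.

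The plasma gate asked for 3 distinct markers of 7 (Mzb1, Derl3, Sdc1, Tnfrsf17, Fkbp11, Prdm1, Txndc5). The germinal centre gate asked for 2 of 8 (Bcl6, Rgs13, Mef2b, S1pr2, Gcsam, Mybl1, Nuggc and another gene not reported here) and 2 B marker UMIs, and the B gate for 2 B marker UMIs. Each allowed at most 1 UMI of other lineages. The 3 pairs of libraries were compared. Levels have exact Poisson intervals, shares Clopper-Pearson and ratios conditional binomial intervals, all at 95%. A share of 0 is given with the limit of 3 counts. Samples were grouped by the labelled treatment, and the call rule was tested on simulated data. The alternatives changed the gates, call thresholds, pseudocount, filter, thinning depth, total and background. Named genes were the 9 members, the 4 most like genes, and the members of each pathway list with the largest ratios. Members and lists were chosen with earlier results of these data known. Sequences and positions came from GENCODE mouse release 21. Python 3.11.15 was used with pandas 2.3.3, numpy 2.4.6, matplotlib 3.10.9, scipy 1.17.1 and Biopython 1.88.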

Additional observations from a re-analysis of the deposited data

Results flagged for a closer look

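In several comparisons a member was higher in a B or germinal centre gate while its non-B level was lower in the same pair of libraries; none of these differences between gates was tested. In LysoPS-OVA over citrate buffer, the B gate fold was 1.22 for Ighm (non-B 0.687), 1.23 for Ighd (0.465) and 2.21 for Ighg3 (0.531). In free OVA over citrate buffer the B gate fold of Ighd was 1.13 (non-B 0.549), and in LysoPS-OVA over free OVA it was 1.09 (0.846). In the germinal centre gate Ighd had a fold of 1.69 in LysoPS-OVA over citrate buffer (non-B 0.465) and 1.74 in free OVA over citrate buffer (0.549). Ighg1 had a fold of 2.41 in free OVA over citrate buffer (non-B 0.516). Ighg2c had one of 2.48 in LysoPS-OVA over free OVA (non-B 0.343), on few UMIs. A single barcode held 12 of the 17 LysoPS-OVA germinal centre UMIs of Ighg2c. Another held 47 of the 72 free OVA non-B UMIs. In barcodes gated on T markers the Ighg2c fold was 1.03 (0.560 to 1.93).

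Some barcodes rich in immunoglobulin lay in none of the gates. Those with over 20% immunoglobulin UMIs and no gate made up 0.0377% of kept barcodes in LysoPS-OVA (0.0138 to 0.0820%) and 0.0694% in free OVA (0.0389 to 0.114%), against 0.0227% in citrate buffer (0.00738 to 0.0530%). These are 6, 15 and 5 barcodes, and all 3 intervals overlap.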

How the results depend on the processing

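No paired analysis was possible because each group is 1 library, and leaving out a replicate was not possible for the same reason. Of 640 alternative values over 77 results, 516 were unchanged. For log2 ratios this meant the same direction and call. For shares, Ighd to Ighm ratios and Jchain levels it meant a value inside the main interval. For counts of members it meant a count near the main one. Without ribosomal-poor barcodes and with nothing subtracted, Igha in the B gate had a log2 ratio of -0.84 in LysoPS-OVA over citrate buffer. Subtracting the non-B level, with these barcodes kept, turned this ratio to 0.56 (0.46 with a looser non-B gate). The same step gave Igha 0.67 (0.64) in free OVA over citrate buffer. It brought Ighg3 in the B gate to 1.01 (1.01) in LysoPS-OVA over citrate buffer and Ighd in the germinal centre gate to 1.02 (1.02) in free OVA over citrate buffer. With a pseudocount of 1, Ighg3 reached 1.11 and 1.02 over citrate buffer in LysoPS-OVA and free OVA. Ighg1 in the germinal centre gate, LysoPS-OVA over citrate buffer, came to 1.19 at 3 markers, 1.33 as a mean of barcode CPM and 1.01 without the top barcode. Over its 10 alternative settings this Ighg1 ratio ran from 0.33 to 1.33, and in 7 of them it stayed under the 2-fold call. Ighd in that gate and comparison came to -0.064 at 3 markers. In the plasma core in place of the plasma gate, Ighg2b reversed to 1.47 and 1.15 and Ighg2c to 0.45 and 0.54, for LysoPS-OVA over citrate buffer and over free OVA. The Ighg2c reversal rests on 1 core barcode with 743 of 791 UMIs: without leading barcodes the core had 529, 2254 and 1920 CPM in LysoPS-OVA, free OVA and citrate buffer. For Ighg2b, single barcodes held 1604 and 451 of the 2122 core UMIs in LysoPS-OVA.

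Shares below are for LysoPS-OVA, free OVA and citrate buffer. The Igha share of the plasma gate was 50%, 37.5% and 57.1% with at least 50 heavy chain UMIs, 2.31%, 2.04% and 3.98% at 2 plasma markers, 55.6% and 33.3% in the OVA libraries at 4 markers, and 38.5% and 41.9% in their cores. Switched germinal centre shares were 16.3%, 26.1% and 17.2% with a call at 50%, which put LysoPS-OVA below citrate buffer, 31.9%, 43.4% and 12.1% in the stricter gate and 13.3% in free OVA with at least 5 UMIs. Switched B gate shares were 1.31%, 3.40% and 3.58% with a call at 50%, and 0.814% in free OVA with at least 5 UMIs. Ighd over Ighm was 0.287, 0.445 and 0.184 in the stricter germinal centre gate, and 0.969 in the LysoPS-OVA B gate without ribosomal-poor barcodes. Ighg3 shares of the B gate were 2.11%, 2.12% and 1.28% thinned to 500 UMIs and 9.08%, 7.89% and 4.27% at 2000. Jchain in Igha barcodes of the plasma gate was 9840 CPM in LysoPS-OVA, 58330 CPM in free OVA and 4496 CPM in citrate buffer; it was 8496 and 51076 CPM in the OVA libraries at 2 markers, 10591 and 105118 CPM per total without immunoglobulin UMIs, and 14485, 32311 and 12418 CPM in the core. Summed over the 3 comparisons, members past 2-fold numbered 2 in place of 1 in the B gate with no filter, and 3 in place of 1 in the non-B gate with a pseudocount of 1. The share of all genes under these changed rules was not computed, so the rises are not read as particular to the members. Unless the change of gate or total itself shows it, the cause was not tested. Depth limits Ighe, Ighg2c and the plasma classes, which rest on few UMIs or few barcodes.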

Other observations

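Ighe was nearly silent throughout. All kept barcodes held 65 Ighe UMIs in LysoPS-OVA, 26 in free OVA and 21 in citrate buffer, and no plasma core barcode held any. In the LysoPS-OVA B gate the most Ighe UMIs in 1 barcode was 2.

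Slpi, a secreted protease inhibitor, ranked second by likeness to Ighg1 and was at 677, 299 and 66.7 CPM in the plasma gates of LysoPS-OVA, free OVA and citrate buffer, against 5.52, 6.39 and 9.57 CPM in the B gates. How far its difference between feedings rests on single barcodes was not tested. The Ighg1 levels it was ranked against rested mostly on 1 barcode in each plasma gate.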
